A study of Macaca mulatta with 24 samples.

Results

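The testosterone main effect is the average difference between animals with and without added testosterone over both diets, estimated here for each gene of omental white adipose tissue (WAT) in female rhesus macaques. Animals were assigned to groups by the sample labels. The comparison sets 12 animals with testosterone, the *T* and *T* + *WSD* groups, against 12 animals without it, the *C* and *WSD* groups, and together these are all 24 animals with RNA-seq data. Each of the 4 groups held 6 young adults. The controls (*C*) carried cholesterol implants and ate monkey chow, and the *T* animals carried testosterone implants and ate chow. The *WSD* animals carried cholesterol implants and ate a high-fat Western-style diet (WSD), and the *T* + *WSD* animals had testosterone implants with that diet. Treatment had reached year 3 when the omental biopsies were taken, and the labels give an age of 4 years for every animal without saying at which point of the treatment. The study's methods give a higher age at biopsy, and age entered no fit. The biopsies were whole tissue, so adipocytes, stromal cells, vessels and the mesothelial lining of the omentum were sequenced together.

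Testosterone acts on adipocytes, their precursors and vascular cells. Fat also converts the hormone, by steroid reductases to the more potent dihydrotestosterone and by aromatase to estradiol. Androgens are known to restrain the differentiation of adipocyte precursors and to alter the response of adipocytes to lipolytic hormones, and androgen excess in women, as in polycystic ovary syndrome, often goes with visceral fat.

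Libraries held 6899185 to 28270776 counts (median 20630512.5). Their lowest, median and highest values were 8873248, 20293398 and 22040690 in *C* and 13836058, 21995508 and 28270776 in *T*. In *WSD* they were 9006135, 22389113 and 23839192, and in *T* + *WSD* 6899185, 20501758 and 21015713. The gene ENSMMUG00000038258, which has no symbol, made up 9.92% to 54.7% of the counts in 8 libraries, against 0.879% to 2.51% in the remaining 16. The 8 libraries stand apart, 2 from each group, and are called the high-share libraries below, and log2 fold changes within them and within the other 16 are given beside many of the results. Levels of genes are given in CPM, counts relative to library size after TMM scaling, and log2 fold changes are those of the additive fit, testosterone minus no testosterone, unless a diet is named.

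Averaged over both diets, animals with testosterone had a higher level of *HCAR2*, the antilipolytic nicotinic acid receptor of adipocytes, and lower levels of *ACLY* and *ME1*, 2 enzymes of fatty acid synthesis. All 14 measured genes of de novo lipogenesis, all 23 of cholesterol synthesis and 54 of 55 ribosomal protein genes had a lower fitted level with testosterone. Of all tested genes 43.3% had a higher one. The median log2 fold changes of lipogenesis and cholesterol synthesis were -0.45 and -0.16 on chow and -1.37 and -0.77 on WSD. Within the 8 high-share libraries they were -0.17 and -0.14. At an unadjusted p under 0.05, 7 of 11 markers of the mesothelial lining were lower (63.6%, against 9.31% of all tested genes) and 4 of 13 endothelial markers higher (30.8%, against 6.12%). No single gene passed the adjusted threshold of edgeR.

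At an adjusted p under 0.05, edgeR called 0 of 15207 tested genes for testosterone (0%), and the smallest adjusted p was 0.155, shared by 121 genes. The unadjusted edgeR p was under 0.05 for 2347 genes (15.4%), of which 931 were higher with testosterone (6.12%) and 1416 lower (9.31%). Of these, 201 higher and 375 lower genes also differed by more than 1.5-fold. DESeq2, on the same additive model, called 197 of 14549 genes (1.35%), 102 higher and 95 lower, 109 of them with a fold change over 1.5, and it gave 2781 genes an unadjusted p under 0.05. Of the genes DESeq2 called, 195 had an unadjusted edgeR p under 0.05 and the other 2 were not tested by edgeR. These p-values measure the spread between animals. Without *C* replicate 2, edgeR called *COL25A1* and *GSE1*. Without *WSD* replicate 22 it called *GJA5* and *GSE1*. Without *C* replicate 5 it called 7 genes, which were *HLCS*, *KMT2D*, *ATF7*, *RNase_MRP*, *C3H21orf58*, *PDE4DIP* and ENSMMUG00000045137. *COL25A1*, *GJA5*, *KMT2D* and *ATF7* are named here after their values were seen.

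In the same fit the diet coefficient was called for 1697 genes (11.2%), 772 higher and 925 lower with WSD, with a smallest adjusted p of 0.00391. That count was 1039 without *C* replicate 1 and 862 without *WSD* replicate 21. It was 1018 and 1122 without *T* replicates 17 and 18, and 1115, 1108 and 1104 without *T* + *WSD* replicates 8, 9 and 10. The median log2 fold change for testosterone over all tested genes was -0.03, and 43.3% of the genes were higher with testosterone. No gene had the 6 treated animals all above or all below the 6 untreated ones in both diets at once (0 genes, 0%).

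*HCAR2* (ENSMMUG00000019939), whose receptor binds beta-hydroxybutyrate and niacin and lowers cAMP in adipocytes, was at 5.79, 13.6 and 21.5 CPM in the untreated animals (lowest, median and highest) and at 14.6, 32.5 and 40.2 CPM with testosterone. Each of the 12 treated animals lay above the untreated median and 9 lay above every untreated animal. *T* replicate 17 and *T* + *WSD* replicates 11 and 12 were the ones inside the untreated range. The fold change was 1.09 in log2 units with a standard error of 0.215, at an adjusted p of 0.155 in edgeR and 0.00281 in DESeq2. On chow it was 1.41 and on WSD 0.78, and within the 16 other and the 8 high-share libraries it was 1.08 and 1.14.

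*GSE1*, which encodes a coiled-coil protein of a histone deacetylase complex, was at 39.1, 61.8 and 95.1 CPM without testosterone and at 78.6, 86.8 and 120 CPM with it. The arms overlapped through *WSD* replicate 22 and *C* replicate 2, and 12 of 12 treated animals were above the untreated median. At a standard error of 0.101 its log2 fold change was 0.51 (edgeR adjusted p = 0.155), with 0.53 on chow and 0.49 on WSD. Without *C* replicate 2 the adjusted p was 0.0385 and without *WSD* replicate 22 it was 0.0274. *DENND3*, an exchange factor for a small GTPase of membrane traffic, ran through 5.49, 7.33 and 11 CPM untreated and 7.62, 10.9 and 14.1 CPM treated, a log2 fold change of 0.52. Of the untreated, *WSD* replicates 20 and 22 and *C* replicates 5 and 6 reached into the treated range, and 5 of the 6 *T* animals lay above all *C* animals.

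*SEMA5B*, a semaphorin that guides growing axons, was at 4.84, 7.39 and 12.9 CPM untreated and at 7.59, 14.5 and 23.3 CPM treated. On WSD the 6 treated animals all lay above the 6 untreated, and on chow 2 of 6 did. The log2 fold change was 0.73 over both diets, 0.41 on chow (adjusted p = 0.577) and 1.05 on WSD (adjusted p = 0.0176), and the test of the difference between the diets gave an adjusted p of 0.307. *PDE4DIP*, a Golgi and centrosome scaffold that anchors a cAMP phosphodiesterase, went through 32.3, 41.5 and 53.7 CPM untreated and 36.3, 60.4 and 74.3 CPM treated, a log2 fold change of 0.44. *LHX6*, a LIM homeobox factor, was at 5.57, 8.66 and 13 CPM and at 5.38, 16.5 and 28.6 CPM in turn, a log2 fold change of 0.78. For *LHX6*, 10 of 12 treated animals were above all untreated ones, while *T* replicate 13 was the lowest of all 24.

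The other genes of the 10 smallest p-values among higher genes were *C3H21orf58*, *TBKBP1*, *SHROOM4* and *HLCS*. *C3H21orf58* was scarce, with a median of 0.33 CPM untreated and 0.814 CPM treated and a log2 fold change of 1.32. *TBKBP1*, an adaptor of the TBK1 kinase, had 0.47, *SHROOM4*, a regulator of the actin cytoskeleton, 0.67, and *HLCS*, which attaches biotin to carboxylases, 0.42. *SHROOM4* and *HLCS* were above the untreated median in 12 of 12 treated animals and *TBKBP1* in 11 of 12. DESeq2 called all 10 of these higher genes, with adjusted p-values from 0.00281 to 0.0129. Without *C* replicate 5, edgeR gave *C3H21orf58*, *PDE4DIP* and *HLCS* an adjusted p of 0.0435.

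**Figure D1:**
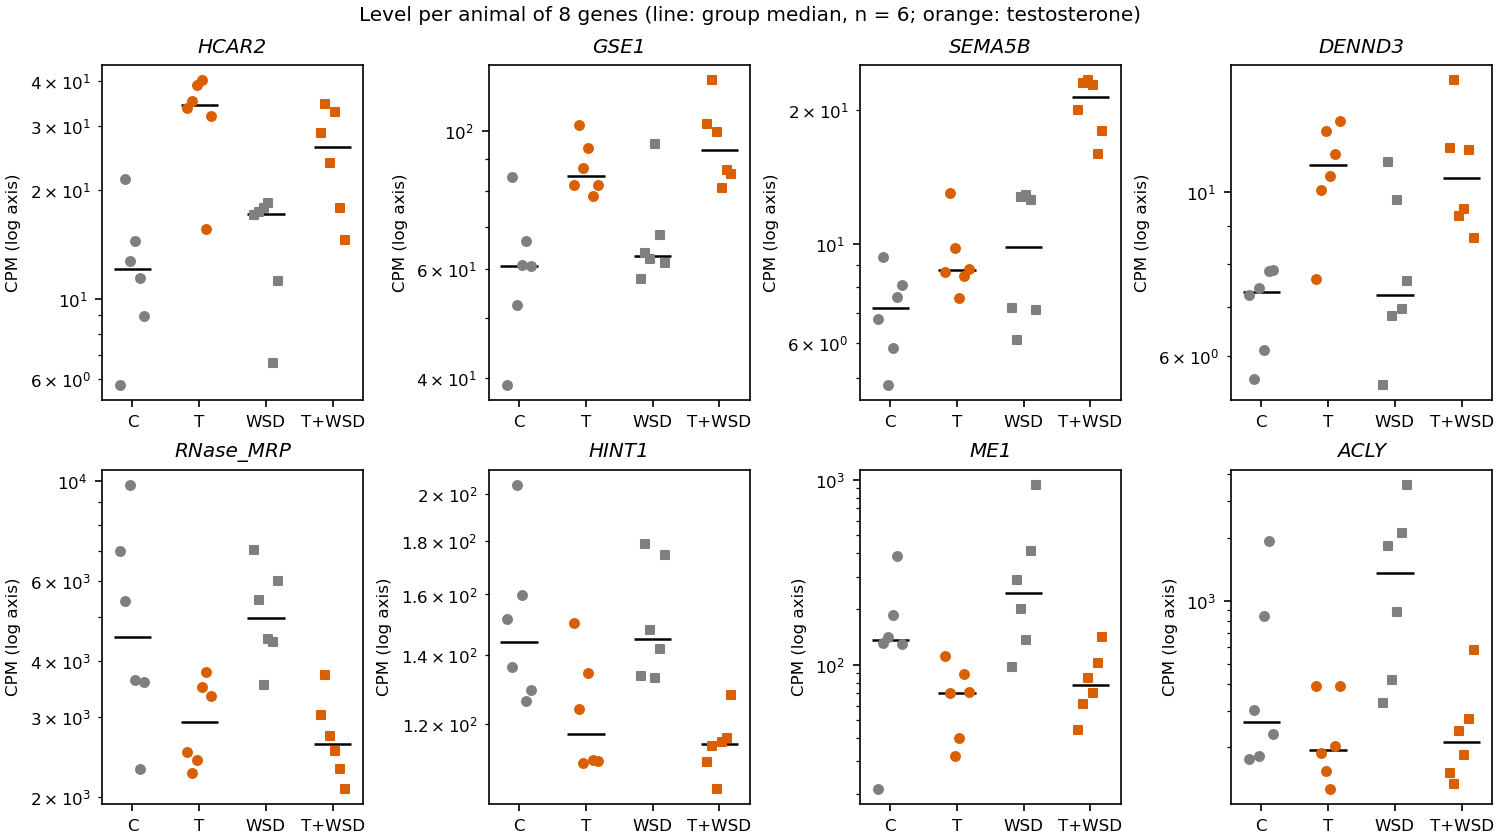
Level in CPM (log axis) of 8 genes in each of the 24 animals, with 6 animals per group, a line at the group median and orange symbols for testosterone. The upper 4 genes were higher and the lower 4 lower with testosterone on both diets, and the arms overlapped for each of the 8.

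Among the 10 smallest p-values in the other direction, the RNA component of RNase MRP, an abundant small RNA that processes ribosomal RNA precursors, was at 2302, 4958 and 9822 CPM without testosterone and at 2082, 2623 and 3779 CPM with it. All 12 treated animals lay below the untreated median, with only *C* replicate 5, *C* replicates 4 and 6 and *WSD* replicate 21 of the untreated inside the treated range. *RNase_MRP* thus had a log2 fold change of -0.88 (edgeR adjusted p = 0.155), and without *C* replicate 5 it was -0.95 at an adjusted p of 0.0435. *HINT1*, a small nucleotide hydrolase, had a narrower spread, with 126, 145 and 204 CPM untreated and 104, 115 and 150 CPM treated. For *HINT1* 9 of 12 treated animals were below every untreated one, on WSD 6 of 6, and the log2 fold change was -0.35 (standard error 0.0795).

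*ACLY*, outside the 10 but a member of the lipogenesis list, splits citrate into the acetyl-CoA used for fatty acid and sterol synthesis. It was at 176, 633 and 3575 CPM without testosterone and at 127, 196 and 584 CPM with it. The high values were in *WSD* replicates 20, 23 and 24 and *C* replicate 5, and all 12 treated animals were below the untreated median. Fitted over both diets, *ACLY* had a log2 fold change of -1.93 at an adjusted p of 0.155 in edgeR and 0.00624 in DESeq2, with -2.14 within the 16 other and -1.30 within the 8 high-share libraries. *ME1*, the malic enzyme that supplies NADPH for lipogenesis, was at 21.3, 164 and 941 CPM untreated and at 32, 70.7 and 142 CPM treated. Its log2 fold change was -1.65, with -0.78 in the 8 high-share libraries, and *WSD* replicate 24 was the highest and *C* replicate 1 the lowest of all animals. *AACS*, which activates acetoacetate for lipid synthesis, had 29.5, 93.2 and 468 CPM untreated and 34.2, 46.5 and 62 CPM treated, a log2 fold change of -1.44 (-0.50 in the 8 high-share libraries), and on WSD its groups did not overlap (log2 fold change -1.93, adjusted p = 0.0367). *EBP*, a sterol isomerase of cholesterol synthesis, had a log2 fold change of -0.92 (-0.30 in the 8 high-share libraries), and 12 of 12 treated animals were below the untreated median.

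The remaining lower genes of the 10 were *SINHCAF* (-0.76), a subunit of a histone deacetylase complex, *GPR37* (-1.21), an orphan G protein-coupled receptor, and *NSG1* (-0.86), an endosomal protein of neurons. Within the 16 other and the 8 high-share libraries *SINHCAF* was at -0.46 and -1.37 and *GPR37* at -0.94 and -1.85. The lower genes also held *RABGGTA* (-0.36), which prenylates Rab proteins, and *SCARNA13* (-0.37), a small RNA of Cajal bodies. *NSG1* was called on WSD, with a log2 fold change of -1.33 (adjusted p = 0.0227) and all 6 *T* + *WSD* animals below every *WSD* animal. *SINHCAF* and *RABGGTA* were also called on WSD, at adjusted p-values of 0.037 and 0.0345. Among genes without a symbol, the smallest p-values fell on ENSMMUG00000045137 (log2 fold change 0.32) and ENSMMUG00000039486 (1.30) among the higher and on ENSMMUG00000040347 (-0.80) and ENSMMUG00000047534 (-3.15) among the lower. The last was at 114 ± 137 CPM untreated and 12.2 CPM treated (mean, SD over 12 animals), so that its spread was larger than its mean.

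Genes that convert or answer to androgens were read next, whatever their result. *SRD5A1*, a steroid reductase that makes dihydrotestosterone, was scarce, with a median of 0.863 CPM untreated and 0.772 CPM treated and a log2 fold change of -0.17 (adjusted p = 0.794). For *SRD5A1* that value was 0.04 within the 16 other and -0.66 within the 8 high-share libraries, 0.01 with the mean of the mesothelial markers as a covariate, -0.08 without *WSD* replicate 19 and -0.27 without *T* + *WSD* replicate 10. *CYP19A1*, aromatase, had 193 counts summed over the 24 libraries, 56 in the highest, and did not pass the filter on low counts, so that it was not tested. *FKBP5*, a co-chaperone of steroid receptors induced by androgens and glucocorticoids in many cells, was at 24, 32.4 and 86.6 CPM and at 16.5, 37.9 and 63.8 CPM. The highest *FKBP5* value was in *WSD* replicate 20, while 4 treated animals lay below every untreated one, and the log2 fold change was -0.07 (adjusted p = 0.906). Its sign was not the same throughout, with 0.15 on chow, -0.30 on WSD, 0.22 within the 16 other and -0.52 within the 8 high-share libraries, and 0.11 without *WSD* replicate 20.

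Of 29 tested genes known to respond to androgens in other tissues, 2 were higher and 4 lower at an unadjusted p under 0.05, against 6.12% and 9.31% of all tested genes, with a median log2 fold change of -0.06 beside -0.03 over all genes. The median was -0.01 without *WSD* replicate 20 and -0.10 without *C* replicate 3. *CAMKK2*, a calcium-dependent kinase that activates AMPK, was at 59, 81 and 106 CPM untreated and 81, 110 and 143 CPM treated. Of the treated animals 11 of 12 were above the untreated median, the log2 fold change was 0.40 and DESeq2 gave it an adjusted p of 0.0367. Under other settings the *CAMKK2* fold change ran from 0.21 to 0.85. *PLPP1*, a lipid phosphatase, was the other higher one (0.29). Among the lower ones were *INSIG1* (-1.05), which holds the sterol sensor in the endoplasmic reticulum, *TPD52* (-0.22) and the DNA repair gene *XRCC6* (-0.15). Of the 8 receptors for sex steroids and corticoids, only *GPER1*, a membrane estrogen receptor, had an unadjusted p under 0.05 (log2 fold change 0.55, 3.03 CPM on average untreated and 4.55 treated). Their median was -0.01, with 0.17 within the 16 other and -0.35 within the 8 high-share libraries. *ESR2* was at 0.37 and *ESR1* at -0.23, neither at an unadjusted p under 0.05.

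Among 18 steroid-converting enzymes, 3 were higher at an unadjusted p under 0.05 (16.7%, against 6.12% of all tested genes). These were *CYP7B1*, a hydroxylase of oxysterols and androgens (0.57), the aldo-keto reductase *AKR1C8* (0.50) and *HSD17B1*, which makes estradiol from estrone (0.30). Under other settings *AKR1C8* ran from 0.20 to 1.16. *HSD17B12*, which also serves in fatty acid elongation, was the 1 lower gene at that p (5.56%, against 9.31%). Its fold change was -0.50, with -0.65 within the 16 other and -0.04 within the 8 high-share libraries. For *HSD17B12* 12 of 12 treated animals were below the untreated median. The list's median was 0.02, and its sign differed between single diets (0.09 on chow, -0.17 on WSD) and with 1 animal left out. Of 12 receptor coregulators, the corepressor *NCOR1* alone (0.10) had an unadjusted p under 0.05 (8.33%, against 6.12%), and the median was 0.07. Of 11 estrogen-responsive genes, *SIAH2* (-0.20) and *RERG* (-0.45) were lower at that level (18.2%, against 9.31%) and none higher. The median of these 11 was -0.18, with 0.04 within the 16 other and -0.38 within the 8 high-share libraries.

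De novo lipogenesis, the synthesis of fatty acids from citrate, had 14 tested genes, and 8 of them were lower at an unadjusted p under 0.05 (57.1% of the list, against 9.31% of all tested genes) and 0 higher. The 8 were *ME1*, *ACLY*, the citrate carrier *SLC25A1* (-1.12), the carboxylase *ACACA* (-1.25), the acetyl-CoA synthetase *ACSS2* (-0.98), fatty acid synthase *FASN* (-1.33), *PNPLA3* (-1.07) and *THRSP* (-1.17). Within the 8 high-share libraries *ACACA* was at -0.48 and *THRSP* at -0.10. *FASN*, the most abundant, averaged 11384 CPM untreated and 4533 CPM treated, with an SD of 8734 and 2134 over 12 animals. *ACACB* (-0.09), *ELOVL5* (-0.09), *FADS2* (-0.08) and *MLXIPL* (-0.04) were within 1 standard error of 0, and *SREBF1*, the transcription factor behind many of these genes, was at -0.43. DESeq2 called *ME1*, *ACLY*, *SLC25A1* and *ACACA*, and on WSD edgeR called *ACLY* (-2.54) and *SLC25A1* (-1.70). Summed over the list, *C* animals were at 1179, 10590 and 29230 CPM (lowest, median and highest) and *T* animals at 7113, 9266 and 15390 CPM. The level was 12560, 20780 and 50720 CPM in *WSD* and 6070, 8020 and 10630 CPM in *T* + *WSD*, so that on WSD every treated animal lay below every untreated one. On chow the groups overlapped, with *C* replicate 1 lowest of all animals. The list's median log2 fold change was -1.03, with -0.45 on chow and -1.37 on WSD, and -1.22 within the 16 other and -0.17 within the 8 high-share libraries. Without *WSD* replicate 24, the highest animal, the median was -0.72.

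In cholesterol synthesis and its SREBP control 14 of 23 genes were lower at an unadjusted p under 0.05 (60.9%, against 9.31%) and 0 higher. Their median log2 fold change was -0.46, with -0.16 on chow, -0.77 on WSD, -0.66 within the 16 other libraries and -0.14 within the 8. Among the lowest were *INSIG1* (-1.05), *EBP* (-0.92), *IDI1* (-0.75) and *ACAT2* (-0.67; -0.15 within the 8 high-share libraries). *SREBF2*, the factor that drives the pathway, was at -0.11, not at an unadjusted p under 0.05. *INSIG1* went through 43.2, 90.7 and 325 CPM untreated and 33.6, 55.8 and 116 CPM treated. Its high values were in *WSD* replicates 20 and 24. DESeq2 called *EBP* and *INSIG1*, and on WSD edgeR called *INSIG1* (-1.73), *NSDHL* (-1.01) and *TM7SF2* (-1.25). For *TM7SF2*, a sterol reductase, the diets differed by -1.75 (interaction adjusted p = 0.0337), with 0.51 on chow.

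**Figure D2:**
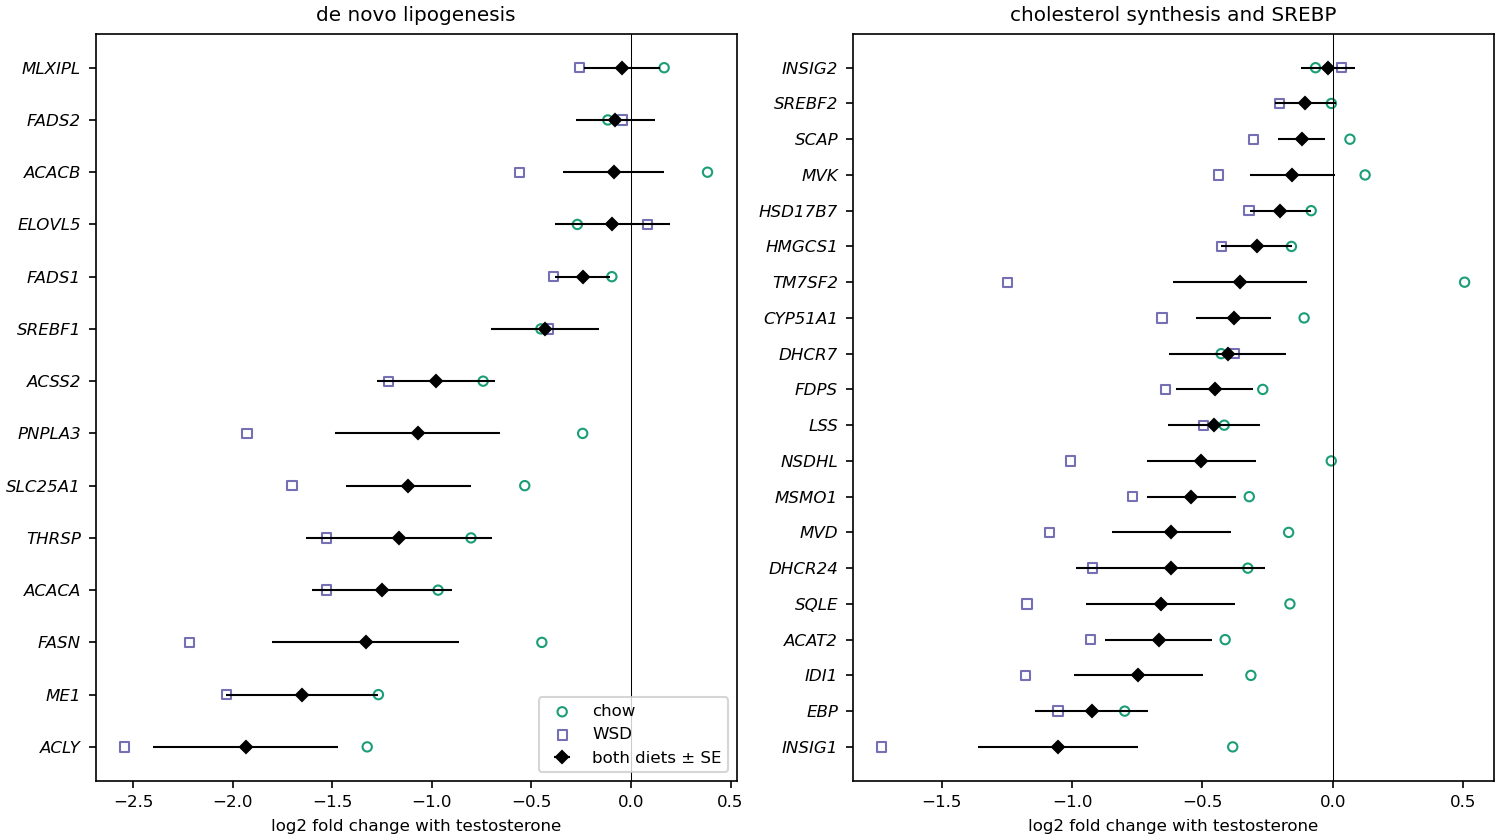
Log2 fold change with testosterone of the 14 tested genes of de novo lipogenesis and 20 of the 23 tested genes of cholesterol synthesis. Diamonds give the additive estimate over both diets (bars for 1 standard error), circles the estimate on chow and squares that on WSD. All diamonds lie below 0, and the circles lie to the right of the squares for most genes.

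In the breakdown of fat, *LIPE*, hormone-sensitive lipase, was at 349, 1309 and 2326 CPM untreated and at 982, 1700 and 2657 CPM treated, a log2 fold change of 0.47 (adjusted p = 0.311), and the 5 lowest untreated values were in *C*. The glycerol channel *AQP7* was also at 0.47, and *PRKAR1A*, a regulatory subunit of protein kinase A, at -0.25. Of 19 lipolysis genes, 2 were thus higher and 1 lower at an unadjusted p under 0.05 (10.5% and 5.26%, against 6.12% and 9.31%). The median of the 19 was 0.03. The lipolysis median was 0.21 on chow, where 6 of the 19 were higher at that level and 0 lower (8.63% of all tested genes reached it there in either direction), and -0.13 on WSD, where 13 of the 19 had a negative fold change. Among 14 antilipolytic and lipolytic receptors, *HCAR2*, the natriuretic peptide receptor *NPR2* (0.21) and the neuropeptide Y receptor *NPY1R* (0.37) were higher at that level (21.4%, against 6.12% of all tested genes) and 0 lower. The median of the receptors was 0.16, with -0.03 within the 16 other and 0.51 within the 8 high-share libraries. It was 0.10 without *C* replicate 1, *C* replicate 6 or *T* + *WSD* replicate 8. For 9 lipid droplet proteins the count was 0 in both directions and the median 0.34, with *PLIN4* at 0.55 and *PLIN3* at 0.40. On chow 1 of the 9 had a negative fold change and on WSD 6 of the 9, where the median was -0.05.

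Of 23 fatty acid uptake and triglyceride synthesis genes, *LPIN3* (0.72) was higher and *ACSL4* (-0.40) and *MOGAT2* lower at an unadjusted p under 0.05. These were 4.35% and 8.7% of the list, against 6.12% and 9.31% of all tested genes, and the median was -0.01. For *MOGAT2* (-3.36) *WSD* replicate 21 was at 136 CPM, while the untreated median was 0.836 CPM and the treated one 0.395 CPM. *ADIPOQ*, the insulin-sensitizing adipokine adiponectin, was at 381, 1034 and 1827 CPM untreated and at 779, 1335 and 2124 CPM treated. The log2 fold change of *ADIPOQ* was 0.48 (adjusted p = 0.312), and 10 of 12 treated animals were above the untreated median. On chow it was 0.79 and on WSD 0.18, and within the 16 other and the 8 high-share libraries it was 0.65 and 0.19. *LEP*, leptin, spread from 4.39 to 1568 CPM untreated (median 297) and from 42.9 to 1576 CPM treated (median 704). For *LEP* 5 of the 6 highest treated values were in *T* + *WSD*, and the log2 fold change of 0.54 had a standard error of 0.511 (adjusted p = 0.629) and was -0.12 within the 16 other and 2.05 within the 8 high-share libraries, with 0.06 on chow and 1.03 on WSD. It was 0.26 without *T* replicate 14 and 0.81 without *C* replicate 6. The 13 adipokines together had 2 higher (*ADIPOQ*, *CFD*) and 3 lower (*RARRES2*, *NRG4*, *ITLN1*) at an unadjusted p under 0.05 (15.4% and 23.1%, against 6.12% and 9.31%) and a median of -0.13. The adipokine median was 0.08 on chow, -0.23 on WSD, -0.12 within the 16 other and 0.19 within the 8 high-share libraries.

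Of 55 cytosolic ribosomal protein genes, 41 were lower at an unadjusted p under 0.05 (74.5%, against 9.31%) and 0 higher. The lowest fold change of the list was -0.35 and the highest 0.03, and the median was -0.23, with -0.17 on chow and -0.29 on WSD. Within the 16 other libraries the median was -0.15 and within the 8 high-share libraries -0.36. *RPS12* was at 184, 264 and 391 CPM untreated and at 172, 216 and 281 CPM treated (log2 fold change -0.35), and 10 of 12 treated animals were below the untreated median. *RPLP1* (-0.30) was below it in 11 of 12, and on WSD its groups did not overlap. Summed over the list the medians on chow were 16140 CPM in *C* and 15360 in *T*, and those on WSD 15260 in *WSD* and 12260 in *T* + *WSD*, where the 6 animals ran from 11410 to 12730 CPM. In *WSD* the lowest animal was at 12340 CPM, inside the *T* + *WSD* range. On WSD edgeR called *RPS25* and *RPS2*.

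Among 30 proteasome subunits 14 were lower at an unadjusted p under 0.05 (46.7%, against 9.31%) and 0 higher, with a median of -0.17 over both diets, -0.03 on chow with 0 lower at that p, -0.32 on WSD and -0.01 within the 8 high-share libraries. *PSMA3*, a core subunit, was below the untreated median in 12 of 12 treated animals (log2 fold change -0.29), and on WSD *PSMA3*, *PSMD6*, *PSMD8* and *PSMD3* were called. Of 31 chaperones and unfolded protein response genes, 9 were lower at an unadjusted p under 0.05 (29%, against 9.31%). *SEL1L* (0.11) alone was higher at that p (3.23%, against 6.12%), and the median was -0.15, or -0.24 without *T* replicate 13. On chow that median was -0.03 with 0 genes lower at an unadjusted p under 0.05, and on WSD it was -0.31 with 12 of the 31 lower, where 20% of all tested genes reached that p in either direction. The subunits of the chaperonin that folds actin and tubulin made up 7 of the 9. *CCT2* (-0.29) and *CCT3* (-0.27) were called by DESeq2, and *CCT2*, *CCT3*, *CCT4*, *CCT8* and *CCT6A* by edgeR on WSD, from -0.41 to -0.43. Of 47 splicing factors, 8 were lower at an unadjusted p under 0.05 (17%, against 9.31%) and *SON* (0.20) higher (2.13%, against 6.12%). The median of the 47 was -0.05. On chow 12 of the 47 were lower and 1 higher at that p, where 8.63% of all tested genes reached it in either direction. On WSD 7 were lower and 9 higher, against 20% of all tested genes in either direction. The splicing factor median was -0.01 outside the high-share libraries and -0.16 within them.

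For the respiratory chain, fatty acid oxidation and branched-chain amino acid breakdown, medians lay on opposite sides of 0 on the 2 diets. The 30 tested subunits of the respiratory chain had a median of -0.26, with all 30 below 0 in the additive fit. But the median was 0.13 on chow and -0.63 on WSD, and 4 of the 30 were lower in both diets. Within the 16 other libraries it was -0.33 and within the 8 high-share libraries -0.11. At an unadjusted p under 0.05, 4 of the 30 were lower (*NDUFB5*, *NDUFA1*, *UQCRC2*, *NDUFA5*), 13.3% against 9.31% of all tested genes. On WSD alone 29 of the 30 were lower at that p, where 20% of all tested genes reached it in either direction, and 3 were called, while on chow 0 reached it. *UQCRC2*, a core subunit of complex III, was at 123, 227 and 454 CPM untreated and 155, 177 and 302 CPM treated. In *T* + *WSD* it was at 155 to 158 CPM in 5 animals and 185 CPM in replicate 12, all below the *WSD* animals, and its log2 fold change on WSD was -0.85 (adjusted p = 0.0367) beside 0.09 on chow. The test of the difference between the diets gave *UQCRC2* an adjusted p of 0.144, and none of the 30 subunits was called in that test. Fatty acid oxidation and the TCA cycle had 0 of 26 genes at an unadjusted p under 0.05. The medians were -0.11 over both diets, 0.24 on chow, -0.51 on WSD, -0.15 within the 16 other and -0.02 within the 8 high-share libraries. On WSD 14 of the 26 were lower at that p, against 20% of all tested genes in either direction, and 1 was called. On chow 3 of the 26 were higher at that p, against 8.63% of all tested genes in either direction. Glycolysis had 2 of 16 lower at an unadjusted p under 0.05 (12.5%, against 9.31%), *PFKL* (-0.37) and *PFKM* (-0.25). Its median was -0.20, with -0.30 within the 16 other and 0.13 within the 8 high-share libraries. The glycolysis median was -0.35 on WSD and 0.00297 on chow, where 8 of the 16 had a negative fold change. The breakdown of branched-chain amino acids had 1 of 19 lower (*MCCC2*, -0.40) at an unadjusted p under 0.05 (5.26%, against 9.31%). The median of the 19 was -0.13. That median was -0.07 within the 16 other and -0.18 within the 8 high-share libraries. It was 0.07 on chow and -0.41 on WSD. On WSD 12 of the 19 were lower at that p, against 20% of all tested genes in either direction.

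**Figure D3:**
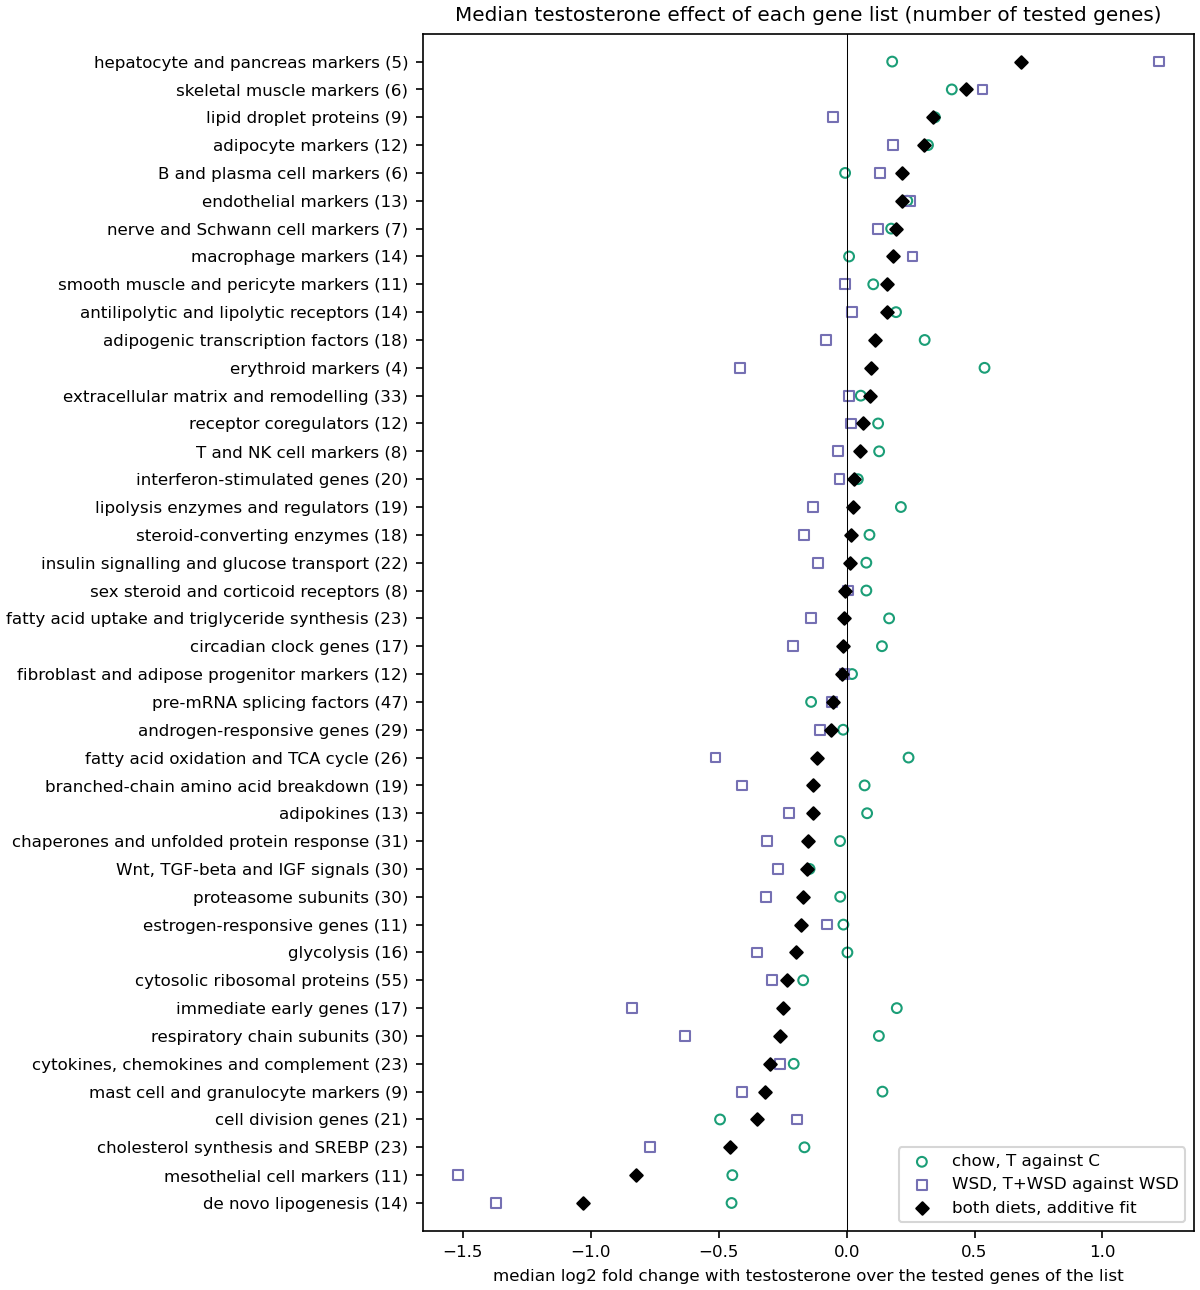
Median log2 fold change with testosterone over the tested genes of each gene list (number of genes in brackets), for the additive estimate over both diets (diamonds), chow alone (circles) and WSD alone (squares), ordered by the diamonds. De novo lipogenesis (-1.03), mesothelial markers (-0.82) and cholesterol synthesis (-0.46) are the lowest of the lists, and the circles and squares fall on opposite sides of 0 for the respiratory chain.

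Cell type markers were measured in the same way. Fewer cells of a type and less RNA per cell cannot be told apart in whole tissue. Of 14 mesothelial markers, 12 were found in the table and 11 tested, and 7 were lower at an unadjusted p under 0.05 (63.6%, against 9.31%). All 11 had a negative fold change, 10 of them in both diets, and the median was -0.82, with -0.45 on chow, -1.52 on WSD, -0.69 within the 16 other and -1.47 within the 8 high-share libraries. *KRT18*, a keratin of simple epithelia, was at 6.27, 64.1 and 233 CPM untreated and at 1.13, 24 and 99.9 CPM treated (log2 fold change -1.50, DESeq2 adjusted p = 0.0313). Its low values were in *T* + *WSD* and in *WSD* replicate 21. *ITLN1*, omentin, the most abundant gene of the list, had a log2 fold change of -1.29 and reached 35030 CPM in *C* replicate 1 and 15853 CPM in *T* replicate 18.

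Summed over the mesothelial markers, *C* animals were at 2733, 7601 and 39070 CPM and *T* animals at 2842, 3991 and 17690 CPM. On WSD the untreated were at 715, 4519 and 5997 CPM and the treated at 238, 989 and 3092 CPM. The groups overlapped on both diets. With the mean of these markers as a covariate the number of genes at an unadjusted p under 0.05 was 609 in place of 2347, and the median log2 fold change was -0.77 for de novo lipogenesis, -0.36 for cholesterol synthesis, -0.16 for ribosomal proteins and 0.07 (in place of 0.22) for endothelial markers, and the Wnt, TGF-beta and IGF list had 0.04 in place of -0.15. The median of the antilipolytic and lipolytic receptors was 0.03 in that fit in place of 0.16. Adipocyte markers had 0.17 in place of 0.30, chaperones -0.10 in place of -0.15 and proteasome subunits -0.11 in place of -0.17. The fold change of *HCAR2* was 0.97, of *GSE1* 0.41, of *ME1* -1.43 and of *RNase_MRP* -0.83. Other genes were nearer to 0 with the covariate, *GPR37* at -0.73 in place of -1.21, *NSG1* at -0.55 in place of -0.86, *SINHCAF* at -0.48 in place of -0.76 and *TBKBP1* at 0.28 in place of 0.47. The part of the mesothelial cells in the other differences was not tested beyond these values.

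Endothelial markers were higher in 12 of 13 genes, 4 of them at an unadjusted p under 0.05 (30.8%, against 6.12% of all tested genes) and 0 lower. *PECAM1*, the junction protein CD31, was at 183, 313 and 528 CPM untreated and at 316, 441 and 624 CPM treated, with 12 of 12 treated animals above the untreated median. The *PECAM1* log2 fold change was 0.42 (0.39 on chow, 0.45 on WSD) at an adjusted p of 0.155 in edgeR and 0.0309 in DESeq2. *ESAM* (0.42), *VWF* (0.42) and *EGFL7* (0.22) were the other 3, and *KDR*, a receptor for VEGF, was at -0.12. The list's median was 0.22, with 0.24 on chow, 0.25 on WSD, and 0.17 and 0.36 within the 16 other and the 8 high-share libraries. The summed level had medians of 1669 CPM in *C* and 2016 CPM in *T* on chow, and of 2052 CPM in *WSD* and 2529 CPM in *T* + *WSD*, and the groups overlapped on both diets.

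**Figure D4:**
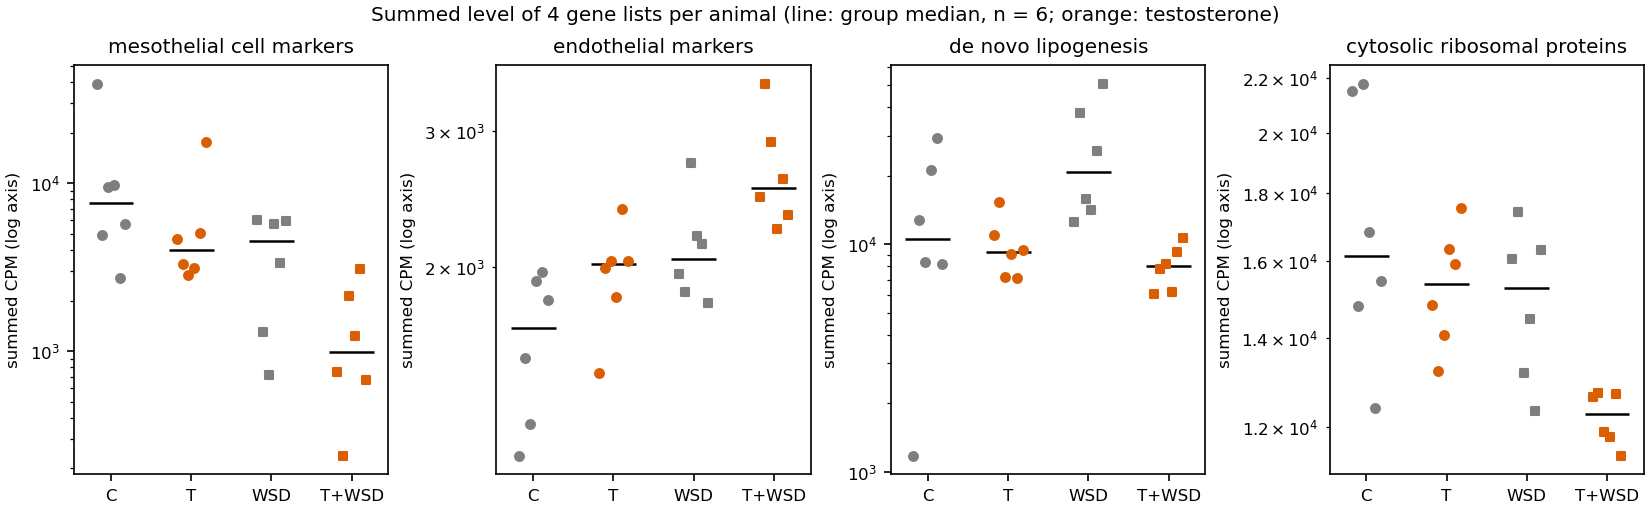
Summed level in CPM (log axis) of mesothelial markers, endothelial markers, de novo lipogenesis genes and cytosolic ribosomal protein genes in each animal, with 6 animals per group, a line at the group median and orange symbols for testosterone. The treated and untreated groups on WSD do not overlap for de novo lipogenesis, where the highest *T* + *WSD* animal is at 10630 CPM and the lowest *WSD* animal at 12560 CPM.

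Of 11 smooth muscle and pericyte markers, *MYH11* (0.73), *TAGLN* (0.51) and *NOTCH3* (0.49) were higher at an unadjusted p under 0.05 (27.3%, against 6.12%) and 0 lower. On WSD 6 of the 11 had a negative fold change and the median was -0.01, and it was 0.23 within the 16 other and 0.49 within the 8 high-share libraries. *TAGLN*, an actin-binding protein, averaged 345 CPM in both *C* and *T* on chow and 352 CPM in *WSD* against 716 CPM in *T* + *WSD* (log2 fold change 1.02 on WSD). The median of the list over both diets was 0.16, and it was 0.31 without *C* replicate 5, 0.25 without *WSD* replicate 19 and 0.11 without *C* replicate 3. *MYH11*, the myosin heavy chain of smooth muscle, was at 51.1, 94.8 and 366 CPM untreated and 88.8, 184 and 373 CPM treated. The 366 CPM were in *C* replicate 5, and 5 of 6 *T* + *WSD* animals lay above every *WSD* animal. Adipocyte markers had 9 of 12 genes higher. At an unadjusted p under 0.05 *ADIPOQ*, *AQP7* and *LIPE* were higher and *THRSP* lower (25% and 8.33%, against 6.12% and 9.31% of all tested genes). The adipocyte median was 0.30, and it was 0.11 within the 16 other libraries. The summed level of these markers overlapped between arms on both diets. Its medians were 18740 CPM in *C* against 18900 CPM in *T* and 29840 CPM in *WSD* against 31400 CPM in *T* + *WSD*.

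For 14 macrophage markers the median was 0.18 and *CHIT1*, a chitinase of lipid-laden macrophages, was the only one at an unadjusted p under 0.05 (1.66). The macrophage median was 0.01 on chow and 0.26 on WSD, and 0.06 within the 16 other and 0.49 within the 8 high-share libraries. On WSD 5 of the 14 were higher at that p, where 20% of all tested genes reached it in either direction. *CHIT1* ranged from 0.112 to 145 CPM untreated and from 5.37 to 1225 CPM treated, the last in *T* + *WSD* replicate 7. Of 12 fibroblast and progenitor markers, 1 was higher (*APOD*, 0.51) and 1 lower (*DPP4*, -0.96) at an unadjusted p under 0.05. These were 8.33% each, against 6.12% and 9.31% of all tested genes, and the median was -0.02. Of 8 T and NK cell markers and of 6 B and plasma cell markers 0 passed an unadjusted p of 0.05, with medians of 0.05 and 0.22, the second 0.42 within the 16 other and -0.36 within the 8 high-share libraries, and apart from *CD4* and *XBP1* these genes were scarce. Of 9 mast cell and granulocyte markers, only *CSF3R* (0.52) had an unadjusted p under 0.05 (11.1%, against 6.12% of all tested genes higher). The median of the 9 was -0.32, with -0.33 within the 16 other and 0.15 within the 8 high-share libraries. The 4 erythroid markers had a median of 0.10, with 0.10 and -0.31 in the same subsets.

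The list of long noncoding transcripts could not be read, since 0 of its 8 names matched a symbol. Markers of liver and pancreas (5 tested, median 0.68), skeletal muscle (6 tested, median 0.47) and nerve (7 tested, median 0.19) were mostly scarce. *ALB*, albumin, had a log2 fold change of 3.14, with 34.3 CPM in *T* + *WSD* replicate 11 and a treated median of 0.602 CPM. *CKM* (3.17), a creatine kinase of muscle, reached 11.2 CPM in *T* + *WSD* replicate 10 with a treated median of 0.0786 CPM, and *ACTA1* (2.54), skeletal actin, was at 28.7 CPM in the same animal. *CKM*, *ACTA1* and *TNNT3* (0.59) were higher (3 of 6, 50%, against 6.12%) and *TNNT1* (-1.12), a slow troponin, lower at an unadjusted p under 0.05, and DESeq2 called *TNNT1* (adjusted p = 0.0379). *STMN2* (3.05), a neuronal tubulin regulator, was under 1 CPM in all 18 animals outside *T* + *WSD* and at 9.33 CPM in *T* + *WSD* replicate 8.

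Of 30 Wnt, TGF-beta and IGF signals 10 were lower (33.3%, against 9.31%) and 2 higher (6.67%, against 6.12%) at an unadjusted p under 0.05. The median of the 30 was -0.15. The median was 0.01 within the 16 other libraries and -0.38 within the 8, -0.24 without *T* replicate 13 and -0.10 without *T* + *WSD* replicate 8. *WNT2B*, a Wnt ligand, was at 16, 50.9 and 122 CPM untreated and at 16.4, 29.6 and 63.5 CPM treated, with a log2 fold change of -0.74 and an adjusted p of 0.155 in edgeR and 0.0256 in DESeq2. It was -0.84 on chow and -0.65 on WSD, 11 of 12 treated animals were below the untreated median and the highest value was in *C* replicate 1. *BMP4*, a bone morphogenetic protein that commits precursors to the adipocyte lineage, was below the untreated median in 12 of 12 treated animals (-0.45), and on chow all 6 *T* animals lay below all 6 *C* animals. *ROR2* (-0.67), a Wnt receptor, *DKK1* (-0.99), a secreted Wnt inhibitor, *DKK3* (-0.77), *WNT5A* (-0.84), *WNT5B* (-0.72), *WNT3* (-0.64), *BMP7* (-0.71) and *TGFB2* (-0.34) made up the rest of the lower genes. *IGF2* (0.58) and the Wnt receptor *FZD4* (0.36) were the 2 higher ones.

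Of 18 adipogenic transcription factors, 1 was higher and 1 lower at an unadjusted p under 0.05 (5.56% each, against 6.12% and 9.31%). These were *EBF1* (0.33) and *CEBPD*, an early factor of differentiation (-0.96), and the median of the list was 0.11. *CEBPD* was at 14.7, 53.6 and 126 CPM untreated and 14.4, 28.3 and 53.4 CPM treated, and 12 of 12 treated animals were below the untreated median. Immediate early genes had 3 of 17 lower at that p (17.6%, against 9.31%), which were *MYC* (-0.83), *SOCS3* (-1.16) and *FOSL2* (-0.88). The list's median was -0.25, with 0.20 on chow, -0.84 on WSD, -0.01 within the 16 other and -0.70 within the 8 high-share libraries. DESeq2 called *MYC* (adjusted p = 0.0415). Clock genes had 3 of 17 lower at an unadjusted p under 0.05 (17.6%, against 9.31%), among them *CRY1* and *NFIL3*. The clock median was -0.01, with 0.05 within the 16 other and -0.30 within the 8 high-share libraries. Of 23 cytokine, chemokine and complement genes, *CFB* (-0.82), *CFI* (-0.65), *C3* (-0.64) and *CCL2* (-0.73) were lower and *C5* (0.34) higher at an unadjusted p under 0.05 (17.4% and 4.35%, against 9.31% and 6.12%). Their median was -0.30, with -0.21 within the 16 other and -0.05 within the 8 high-share libraries.

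Of 33 extracellular matrix genes, 3 were higher and 1 lower at an unadjusted p under 0.05 (9.09% and 3.03%, against 6.12% and 9.31%). The higher were *MMP7* (2.42), *MMP14* (0.32) and *THBS1* (0.60), and the lower was *POSTN* (-0.86). The matrix median was 0.09, with -0.02 within the 16 other and 0.39 within the 8 high-share libraries. *MMP7*, matrilysin, was at 0 to 2.53 CPM in untreated animals and at 32.3 CPM in *T* + *WSD* replicate 7. Interferon-stimulated genes had 0 of 20 at an unadjusted p under 0.05 and a median of 0.03. Cell division genes had 2 of 21 lower at that p (9.52%, against 9.31% of all tested genes), *PCNA* (-0.29) and *AURKA* (-0.40). The median of the 21 was -0.35. That median was -0.57 within the 16 other and 0.36 within the 8 high-share libraries. Of 22 insulin signalling genes, 1 was higher (*PIK3CA*, 0.19) and 1 lower (*PTPN1*, -0.11) at an unadjusted p under 0.05. These were 4.55% each, against 6.12% and 9.31% of all tested genes, and the median was 0.01.

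The additive fit averages over 2 diets, and the effect on each diet was estimated from animals that the other does not use. On chow, *T* against *C*, 1312 genes had an unadjusted p under 0.05 (8.63%), edgeR called 0 at a smallest adjusted p of 0.0766, and DESeq2 called 11. Without *C* replicate 2 edgeR called 1 gene on chow and without *C* replicate 5 it called 2. On WSD, *T* + *WSD* against *WSD*, 3039 genes had an unadjusted p under 0.05 (20%) and 254 were called (1.67%), 111 higher and 143 lower. That number rests on single animals. It was 13, 28 and 114 without *WSD* replicates 24, 20 and 23, 839 without *WSD* replicate 21 and 158 without *C* replicate 2. Without *T* + *WSD* replicates 7 to 12 in turn it was 29, 31, 50, 33, 57 and 106. It was 0 in the 16 other libraries alone, 0 in the 8 high-share libraries alone, 1 with the mean of the mesothelial markers as a covariate, 117 without the filter on low counts and 799 with DESeq2. Each gene named above as called on WSD was called in the fit over all 24 animals and not in the 16 or the 8 libraries alone. Fitted on the WSD animals alone, 72 genes were called. Among them were *SEMA5B* (adjusted p = 0.0494) and *NSG1* (0.0346), while *AACS* (0.0615), *SINHCAF* (0.0653) and *RABGGTA* (0.0836) were not called there.

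Across the 15207 genes, the fold changes on the 2 diets had a Pearson correlation of 0.0386 and a Spearman correlation of 0.088, and 53.87% had the same sign. Genes are not independent of each other, and the 2 contrasts share no animals but do share the fitted dispersion and the scaling. The unadjusted p was under 0.05 on both diets for 273 genes, of which 74 were higher on both, 72 lower on both and 127 opposite. The 146 with the same sign are 11.1% of the chow genes and 4.8% of the WSD genes at that level. The median absolute log2 fold change was 0.15 on chow and 0.21 on WSD. For the genes called on WSD, the median fold change on chow was -0.04 among the higher and 0.02 among the lower.

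The difference of the testosterone effect between the diets was called for 44 genes (0.289%), and 2050 had an unadjusted p under 0.05. Of the 254 genes called on WSD, 224 had an unadjusted interaction p under 0.05. The 44 became 11, 15, 15 and 21 without *C* replicates 1, 3, 5 and 6 in turn, and 15, 16, 17, 22 and 19 without *T* replicates 13, 14, 15, 16 and 18. They became 14, 115, 14, 21 and 17 without *WSD* replicates 20 to 24, and 17, 24, 20, 19, 26 and 15 without *T* + *WSD* replicates 7 to 12. DESeq2 called 222. *LUC7L3*, a splicing factor of the U1 particle, was one of the 44. It was at a median of 118 CPM in *C* and 81.9 in *T*, but 78.1 in *WSD* and 104 in *T* + *WSD*, so that the log2 fold change was -0.64 on chow and 0.36 on WSD (interaction 1.0, adjusted p = 0.0197). On chow 5 of 6 *T* animals were below all *C* animals. Over both diets the *LUC7L3* value was -0.14 (adjusted p = 0.635). Among the other splicing factors *PNISR*, *SREK1* and *NKTR* were also called in the interaction, at 0.79, 0.69 and 0.48, each with a negative value on chow and a positive one on WSD.

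**Figure D5:**
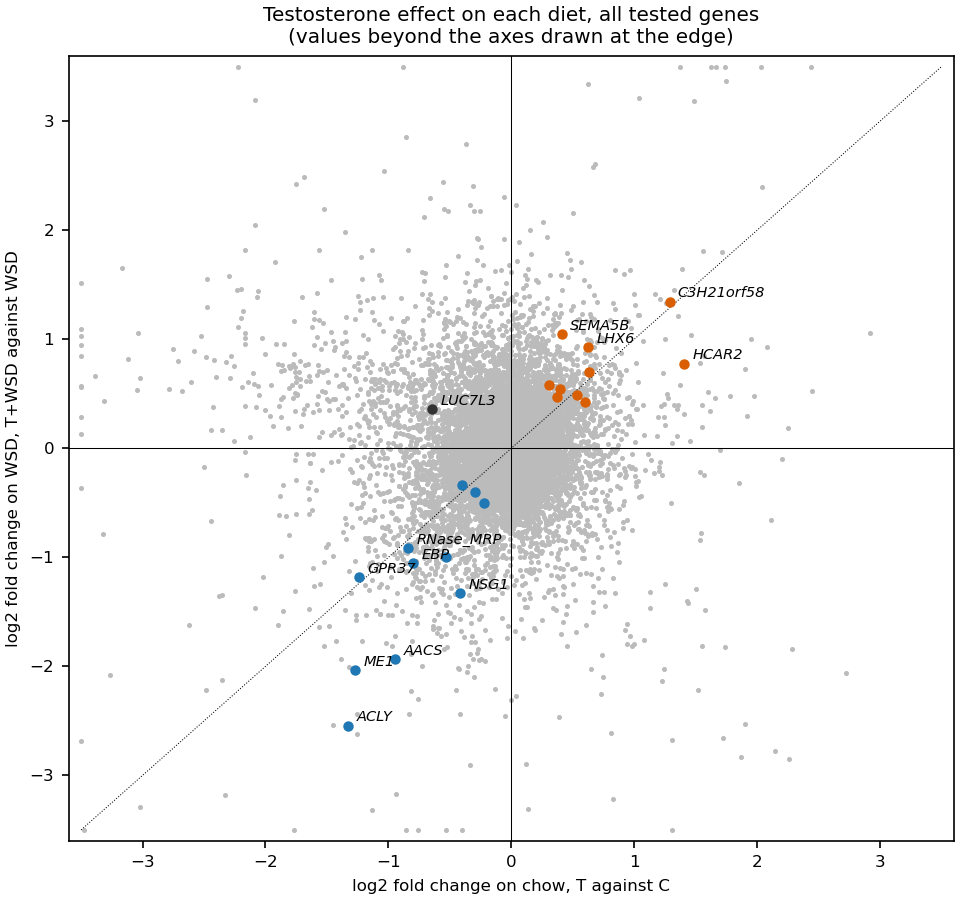
Log2 fold change with testosterone on chow (x axis) and on WSD (y axis) for each of the 15207 tested genes, with *ACLY* and the 10 smallest p-values of each direction in the additive fit coloured (orange higher, blue lower) and *LUC7L3* in black. The coloured genes, picked by the fit over both diets, lie in the quadrants of equal sign (dotted, line of identity), and all genes together have a correlation of 0.0386.

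These values describe 6 animals per group, biopsied at 1 time and from 1 depot, and do not show when or in which cells a level came to differ. With 0 genes called by edgeR and 197 by DESeq2, whether a gene is listed depends on the tool and on single animals. A gene that missed the threshold may still differ. Circulating hormones, adipocyte size and protein levels were not part of the data. The cell make-up of the biopsies was read only through marker genes, and the part of testosterone and that of the tissue sampled cannot be told apart for the mesothelial markers.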

How the data were processed

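The authors deposited raw counts per gene from RNA-seq of ribosome-depleted libraries, 1 column per animal, and the submitters' processing notes name FastQC 0.11.5, Trimmomatic 0.36, STAR 2.5.2b and DESeq2 1.18.1. The counting tool and its strand setting are not given in the sources used here. The table lists 32386 genes, 7255 of them at 0 in all libraries. The filter filterByExpr (minimum count 10, minimum total 15, by group) kept 15207. Counts were scaled by TMM and fitted in R 4.3.3 with edgeR 4.0.16 (glmQLFit with robust=TRUE and legacy=TRUE, two-sided quasi-likelihood F-test) on testosterone and diet, and for single diets and the interaction on 4 groups. P-values were adjusted by Benjamini-Hochberg over all tested genes, and a gene was called at an adjusted p under 0.05. Adjusted p-values in the text are edgeR's unless DESeq2 1.42.0 is named. Symbols came from the gene table for 12414 tested genes and from the study's supplementary tables for 210, and 2583 had none. Named were the 10 smallest p-values per direction among genes with a symbol, *SRD5A1*, *CYP19A1*, *FKBP5*, *HCAR2*, *LUC7L3*, *ADIPOQ* and *LEP*, and up to 4 genes of smallest p in each of 43 lists; other members named in the text were chosen after their values were seen. The members and lists were chosen with earlier results of these data known.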

Additional observations from a re-analysis of the deposited data

Results flagged for a closer look

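Within each group of 6 animals, a value was picked out when it lay far from the nearest animal relative to the range of its group on a log2 scale (Dixon's criterion). This held for 25 of 392 groups tested, and chance flags about 1 in 20 groups. Among genes higher with testosterone, *HCAR2* was low in *T* replicate 17 (15.6 CPM), *GSE1* high in *WSD* replicate 22 (95.1 CPM), *LHX6* high in *T* + *WSD* replicate 8 (28.6 CPM) and *ESAM* high in the same animal (114 CPM). *MYH11* was low in *T* + *WSD* replicate 10 (101 CPM). Of the steroid genes, *SRD5A1* was high in *WSD* replicate 19 (1.69 CPM) and *T* + *WSD* replicate 10 (1.35 CPM), *FKBP5* high in *WSD* replicate 20 (86.6 CPM) and *TPD52* low in *T* + *WSD* replicate 9 (18.6 CPM). The summed androgen-responsive genes were high in *WSD* replicate 20 (3708 CPM).

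*T* + *WSD* replicate 12 was low for *LEP* (592 CPM) and high for *UQCRC2* (185 CPM), *SON* (250 CPM) and the summed respiratory chain (3166 CPM). *SON* was also high in *C* replicate 5 (221 CPM). *C* replicate 1 was high for *BMP4* (72.1 CPM) and low for *THRSP* (38.8 CPM), the summed respiratory chain (1899 CPM) and the summed adipocyte markers (3569 CPM). *T* + *WSD* replicate 8 was high for *RPS12* (223 CPM) and low for *CFB* (135 CPM) and *KRT19* (5.94 CPM). *CFB* was also low in *WSD* replicate 21 (306 CPM), *CCT3* was high in *T* replicate 13 (187 CPM), and the summed mesothelial markers were high in *T* replicate 18 (17690 CPM).

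Over all 24 animals the interaction test called *TM7SF2* (-1.75), *LUC7L3* (1.0), *PNISR* (0.79), *SREK1* (0.69) and *NKTR* (0.48), in log2 units on WSD minus chow. That test called 0 genes in the 16 other libraries alone and 0 in the 8 high-share libraries alone.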

How the results depend on the processing

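No paired analysis was possible because the groups share no replicate numbers. For the additive fit, edgeR called 0 genes under RLE or upper-quartile scaling, no filter on low counts, legacy=FALSE, an adjusted p under 0.1, a mean of the diets in a fit of 4 groups, no diet term, chow animals alone, the high-share libraries as a covariate, the 16 other libraries alone, the 8 alone, the dominant gene removed and the mesothelial covariate. With WSD animals alone 72 genes were called, 46 of them with a fold change over 1.5, and with DESeq2 197 and 109. Leaving out 1 animal gave 0 to 7 (*C* replicate 5; 2 each without *C* replicate 2 or *WSD* replicate 22), and 0 to 2 (*C* replicate 5) with the fold change. The 2347 genes at an unadjusted p under 0.05 became 992 on chow alone, 1180 in the 8 high-share libraries alone (chosen after seeing the data) and 609 with the mesothelial covariate. With 1 animal left out they ran from 1890 (*WSD* replicate 24) to 2789 (*C* replicate 5).

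Without the filter the calls were 117 on WSD, 7 for the interaction and 1059 for diet. In the 16 other libraries these were 0, 0 and 794, in the 8 high-share libraries 0, 0 and 0, and with the mesothelial covariate 1, 16 and 1. DESeq2 called 11 on chow, 799 on WSD and 222 for the interaction. With 1 animal left out the ranges were 0 to 2 on chow (highest without *C* replicate 5), 13 (*WSD* replicate 24) to 839 (*WSD* replicate 21) on WSD, 11 (*C* replicate 1) to 115 (*WSD* replicate 21) for the interaction, and 862 (*WSD* replicate 21) to 2151 (*WSD* replicate 19) for diet. The cause of these differences was not tested, and the subsets hold fewer animals.

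For 77 named genes, 2924 values under other settings held 26 changes of sign in 8 genes, none with a call, and 39 values had an adjusted p under 0.05. The median over all genes stayed between -0.03 and -0.01. *CYP19A1*, with 193 counts in all 24 libraries, was not tested.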
